A study of Rattus norvegicus with 10 samples.

Results

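The cytosolic ribosome is built from a large and a small subunit, and each of its proteins is named for the subunit it belongs to (L or P, and S or SA). The genes of these proteins were read in a table of gene expression from the kidney cortex of rats, as every protein-coding entry whose symbol begins with Rpl or Rps followed by a digit, or with Rplp or Rpsa, leaving out the Rps6k kinases. This rule found 113 of the 32545 entries, under 92 symbols. For 11 symbols the table holds several entries, 32 in all. Of the 113 entries, 75 span at least 100 bases more than their stated gene length, and are called here entries with introns. The other 38 span less than 100 bases more than that length, most of them no more, and are called here entries without introns. Reverse-transcribed copies of an mRNA take a form without introns in a genome.

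Ribosomal protein mRNAs are among the most abundant of any cell. Many begin with a run of pyrimidines, the 5′ terminal oligopyrimidine (TOP) tract, through which mTOR complex 1 and the RNA-binding protein Larp1 control their translation and stability. The proteins are used in nearly fixed ratio, and surplus copies are degraded or bind the p53 regulator Mdm2. In mammals most of these genes also left many processed copies in the genome, so that short reads from 1 mRNA can match several places.

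The animals were male Dahl salt-sensitive rats 11 to 12 weeks old, and polyadenylated RNA of the left renal cortex was sequenced. The 10 libraries fall into 2 groups, SS_WT (wild type, 5 libraries) and Kcnj16_m1 (5 libraries), a mutant of Kcnj16, whose protein forms part of potassium channels on the basolateral side of renal tubule cells. Both groups share the salt-sensitive background, and the labels do not say what the m1 allele changes. Whole cortex was used, so each library mixes tubule, vessel, immune and connective tissue cells. The recovered reads came to between 16361516 and 23385968 per library. The Kcnj16 mRNA was at 347 ± 21.6 FPKM (SD, n = 5), a fragment count scaled to gene length and library size, in SS_WT and at 326 ± 13.3 in Kcnj16_m1, with an adjusted p of 0.278 from limma, so its level does not check the genotype labels.

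The start regions of 8 genes are printed to show where pyrimidine runs lie in genes that were lower and in genes that hardly differed. The genes were taken from entries with introns at 100 FPKM or more that match a single promoter in the RefSeq table of assembly GRCr8. They are the 4 largest falls and the 4 smallest differences among these entries. Each stretch runs from 20 bases before to 20 bases after the annotated start, 5′ to 3′ on the gene's strand, and capitals mark its longest run of C and T. The first 4 genes were lower in Kcnj16_m1.
Rps28, chr7:15311314-15311353, minus strand: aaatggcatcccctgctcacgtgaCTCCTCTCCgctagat
Rps15, chr7:10068096-10068135, minus strand: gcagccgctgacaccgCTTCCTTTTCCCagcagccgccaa
Rpl27a, chr1:172974553-172974592, plus strand: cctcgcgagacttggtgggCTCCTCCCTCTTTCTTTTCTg
Rpl39, chrX:121195877-121195916, minus strand: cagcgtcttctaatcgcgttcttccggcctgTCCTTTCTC

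The next 4 differed least between the groups. Among all 8, the run is shorter than 8 bases in Rpl18, at 7, and in Rpl6, at 5, and in Rpl39 it begins 12 bases past the annotated start.
Rps10, chr20:5700725-5700764, minus strand: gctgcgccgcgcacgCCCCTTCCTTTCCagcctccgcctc
Rpl29, chr8:115947623-115947662, plus strand: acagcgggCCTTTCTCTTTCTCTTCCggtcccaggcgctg
Rpl18, chr1:105325250-105325289, plus strand: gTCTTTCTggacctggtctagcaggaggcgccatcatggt
Rpl6, chr12:41011671-41011710, minus strand: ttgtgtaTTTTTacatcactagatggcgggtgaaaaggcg

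Of the 75 entries with introns, 54 matched a single promoter by symbol and chromosome, and 51 of these were tested for expression. Entries that matched none or several were left out. A run of at least 8 pyrimidines lay within 20 bases of the annotated start in 37 of the 54, which is 68.5%, against 15.5% of all 33469 promoters in the table. The share was 65.4% (17 of 26) among matched entries that were lower in Kcnj16_m1, and 68.0% (17 of 25) among those not past the threshold. Both Rpl7a entries matched the same promoter, which has such a run and is counted for each of them in the 37 and in the 17 of 25. The letters CCGGAA, which ETS family factors bind, were searched on both strands over the whole 300 bases. They lay in 28 of the 54, or 51.9%, against 15% of all promoters. On the other strand CCGGAA reads TTCCGG, so a match can overlap the end of a pyrimidine run. TATAA on the gene's strand, 40 to 16 bases before the start, was found in 4 of the 54 (7.41%) against 2.48% of all promoters. Matches are a description of the letters only.

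Many ribosomal protein entries were lower in the mutant cortex, and more of them did not pass the test. Of the 113 entries, 91 had at least 0.5 FPKM in at least 5 libraries and were tested, and 88 of these were above that level in all 10. Of the 22 not tested, 15 have no introns and 3 are listed at 0 in every library. After adjustment over all 13971 genes tested, limma called 39 of the 91 lower and 3 higher in Kcnj16_m1, and 49 did not pass the threshold of 0.05. Over all genes tested, 14% were called lower and 14.6% higher. The median log2 fold change (Kcnj16_m1 minus SS_WT, on log2(FPKM + 0.5)) was −0.26 over the 91 entries and 0.01 over all genes. The falls ran from −1.27 for Rps19 to −0.26 for Rpl13. In 30 of the 91 every mutant library lay below every wild-type library, against 9.34% of all genes in that direction, and in none did every mutant library lie above, against 9.88%.

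Macrophage and lymphocyte markers were also lower, and single markers of several other cell types were higher. Of 5 macrophage markers 4 were lower, with a median log2 fold change of −0.79, and their summed level was 88.1 to 137 FPKM in SS_WT and 59.1 to 74.4 in Kcnj16_m1. All 4 tested lymphocyte markers of 6 listed were lower, with sums of 10.02 to 15.8 against 4.08 to 6.52 FPKM. None of these markers is at 0 in every library. Of 3 fibroblast markers Dcn and Col1a1 were lower and Pdgfrb was higher. Thick limb and distal tubule (1 of 3), collecting duct (1 of 2), podocyte (1 of 2) and endothelial markers (2 of 2) were higher where called, and neither of the 2 tested red blood cell markers passed. Of 5 proximal tubule markers 2 were higher, with sums of 2004 to 2654 FPKM in SS_WT and 2856 to 3176 in Kcnj16_m1. Fewer cells of a type and less RNA per cell cannot be told apart in whole cortex, and the part of cell makeup in the ribosomal protein result was not tested.

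Added up, the ribosomal protein entries of wild-type replicates 1 to 5 came to 28847, 27688, 28590, 22762 and 26529 FPKM. The mutant replicates 1 to 5 gave 22110, 22574, 20886, 23341 and 22342 FPKM. Wild-type replicate 4 lies among the mutants and the other wild types lie above all of them. The means were 26883 ± 2476 and 22251 ± 892 (SD, n = 5), a ratio of 0.828. As a share of recovered reads the entries held 1.78% ± 0.205 in SS_WT and 1.48% ± 0.0508 in Kcnj16_m1. The ratio was 0.830 for the large subunit and 0.825 for the small subunit. The summed mRNA of the 76 mitochondrial ribosomal protein genes, named Mrpl or Mrps, had a ratio of 0.944.

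**Figure D1:**
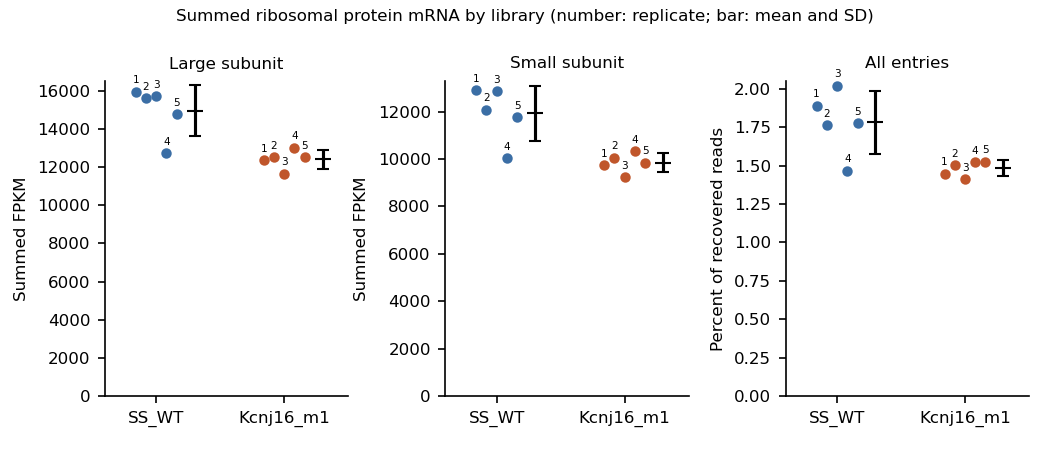
Summed FPKM of large- and small-subunit entries and their share of recovered reads, for each library, with the mean and SD at the right of each group. Wild-type replicate 4 sits at the level of the mutant libraries in all 3 panels, and the other 4 wild-type libraries sit above every mutant library.

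Replicates 1 and 4 stand apart within the wild type, and both bear on what follows. Replicate 4 has low levels of most members. Of the 68 tested entries with introns, 24 were above and 25 were below all mutant libraries in it, and its median excess over the mutant mean was 0.00 on the log2 scale. Replicate 1 has the opposite form, with 64 of the 68 above all mutants, 0 below and a median excess of 0.38. Its excess varied less among members than that of the other wild types, with an SD over entries of 0.21 against 0.38 to 0.49. Among the 34 entries with introns that did not pass, replicate 1 was the highest wild type in 29, and among the 32 that were lower it was the highest in 2. These sets were formed from the same values, so the counts are a description. The labels name no batch. Wild-type replicates 1 and 2 carry the 2 lowest library numbers in the labels, and the number of replicate 4 lies among those of the other libraries.

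Ratios between members within a library show the same split. Rps28 was at 0.442 times the FPKM of Rps27a in wild-type replicate 1 and at 1.175, 0.912, 1.31 and 1.26 times in replicates 2 to 5. In the mutants the ratio ran from 0.296 to 0.375. Rps15 was at 1.34 times Rps3 in wild-type replicate 1, at 2.26 to 2.90 times in the other wild types and at 1.20 to 1.25 times in the mutants. In these ratios wild-type replicate 1 lies just above the mutants and far below the other wild types. The pairs were chosen after their values were seen. Rps27a held only 56.4% of the summed FPKM of all entries for its protein, and its copy Rps27a-ps1 was lower in Kcnj16_m1. The first ratio therefore also depends on how reads were divided among copies. Rps15 and Rps3 held 99.99% and 99.7% of the sums for their proteins.

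**Figure D2:**
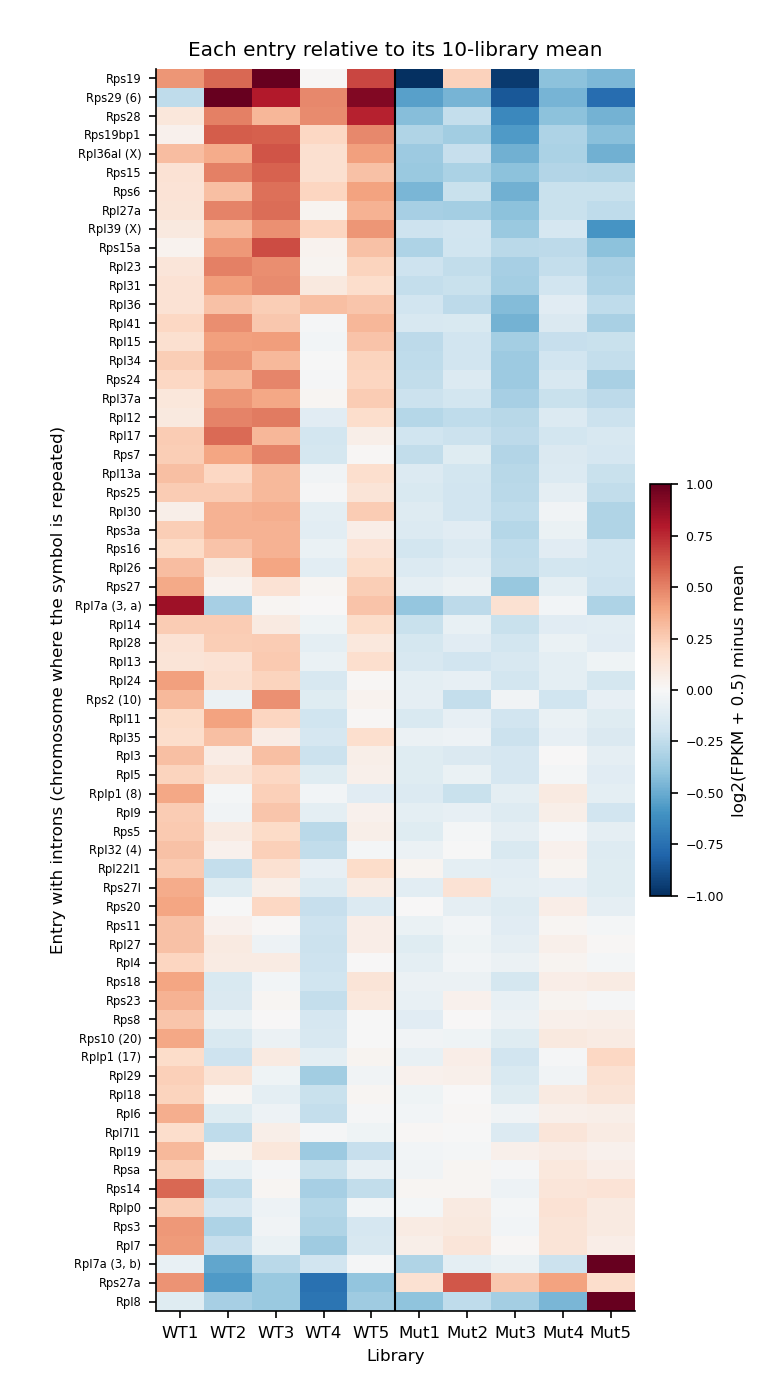
Tested entries with introns, 66 of the 68 (rows, ordered by log2 fold change) in each library (columns), as log2(FPKM + 0.5) minus the entry's mean over 10 libraries. Colours end at −1 and 1. Wild-type replicate 1 is above the mean in nearly all rows, replicates 2, 3 and 5 mostly in the upper rows, and replicate 4 is below the mean in the lower rows.

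Without wild-type replicate 1, limma called 38 of the 91 entries lower and 9 higher, beside 15.3% and 17.1% of all genes, and the median log2 fold change was −0.23. The 38 were all among the 39. Without replicate 4 it called 46 lower and 0 higher, with a median of −0.32. Over all 13793 genes tested in that fit 1892 were lower and 2017 higher. The 9 higher entries without replicate 1 included Rps27a, the chromosome 6 entry of Rpl32, Rps3, Rps14, Rpl7, Rpl34-ps1, Rpl37-ps1 and the chromosome 18 entry of Rpl39. Rps3 was then 0.28 higher (adjusted p 0.00991), Rps14 0.25 higher (adjusted p 0.0281) and Rpl7 0.28 higher (adjusted p 0.00618). With all 10 libraries none of these 3 passed. Leaving out replicate 1 thus moved the number called higher from 3 to 9 and the number called lower from 39 to 38.

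Gene length was set beside the fold change, since short genes differ between the libraries. Short genes lay lower in Kcnj16_m1 across the whole table. In genes outside the ribosomal set the median log2 fold change was −0.07 under 500 bases and −0.07 from 500 to under 1000, then −0.01 up to 2000, 0.02 up to 4000 and 0.04 from 4000 bases. In every class with more than 1 ribosomal entry, a larger share of them was called lower than of all genes of that length. Under 500 bases 15 of 37 (40.5%) were called lower against 14.4% of all genes of that length, with a median of −0.34. From 500 to under 1000 bases 17 of 39 (43.6%) were lower against 24%, with a median of −0.25. From 1000 to under 2000 bases 7 of 13 (53.8%) were lower against 17.6%, with a median of −0.26. The 2 entries that are longer, Rpl11 of 3845 bases and Rpl7 of 5151 bases, did not pass.

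Level was set beside length, since the members are both short and abundant. Among other genes at 100 FPKM or more and under 1000 bases, 67 of 219 (30.6%) were lower and 27 (12.3%) were higher, with a median of −0.10. Among other genes at 100 FPKM or more of any length, 137 of 725 (18.9%) were lower and 190 (26.2%) were higher, with a median of 0.05. Of the 57 ribosomal entries at 100 FPKM or more, also of any length, 29 were lower. Of the 56 of these with introns, 28 (50%) were lower and 2 (3.57%) were higher. Within the 91 entries, Spearman's rho of log2 fold change with length was 0.19, and with mean level it was 0.00. Over 13880 other genes rho with length was 0.11. These describe genes measured in the same libraries, which are not independent of each other. After a curve of deviation against length was removed from each library, 35 entries were lower and 4 higher, beside 14.3% and 14.1% of all genes, and the median was −0.19. All 35 were among the 39.

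**Figure D3:**
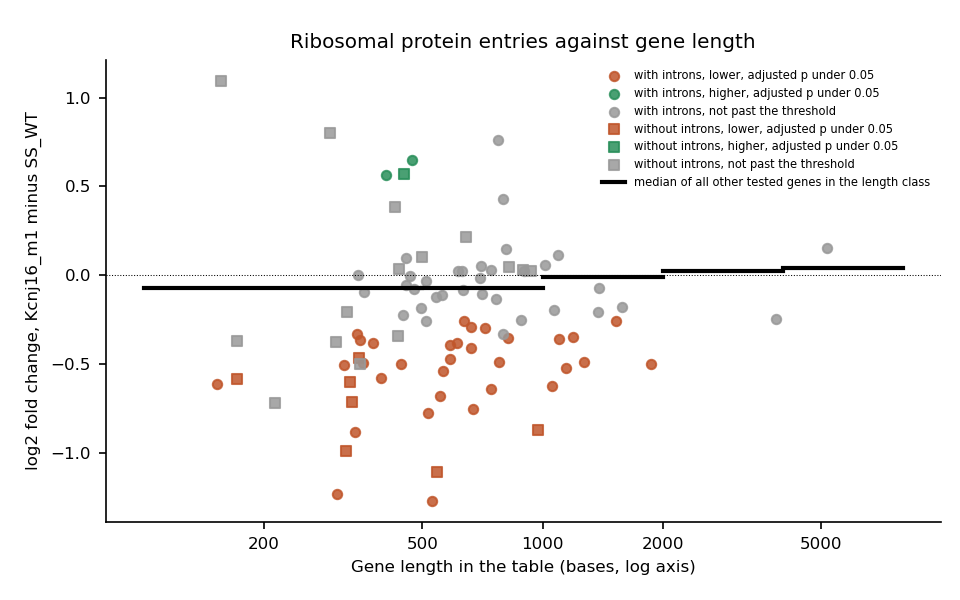
Log2 fold change (Kcnj16_m1 minus SS_WT) of the 91 tested ribosomal protein entries against gene length in bases on a log axis. Circles are entries with introns, squares are entries without, and black bars give the median of all other tested genes in each length class. Entries that were lower lie below the black bars from 153 to 1865 bases.

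Both subunits held members that were lower. Among large-subunit entries 23 of 56 were lower (41.1%) and 1 was higher, and among small-subunit entries 16 of 35 were lower (45.7%) and 2 were higher. The medians were −0.25 and −0.33. The small-subunit entries that were lower include Rps19bp1, which the rule took in by its symbol and which is not a structural protein of the ribosome. Its log2 fold change was −0.77 (limma adjusted p 0.000881). Entries with introns were lower in 32 of 68 (47.1%) and those without in 7 of 23 (30.4%). Most entries without introns are weakly expressed, with a median of 6.80 FPKM against 344 for those with introns.

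The 3 largest falls past the threshold were those of small-subunit entries, Rps19, Rps29 and Rps27a-ps1. Rps29 on chromosome 6 encodes a small zinc-binding protein of the subunit's head. Wild-type replicates 1 to 5 had 681, 1775, 1405, 1130 and 1543 FPKM, and the mutants had 555, 588, 451, 588 and 478 FPKM. All wild types lie above all mutants, and replicate 1 lies much nearer to the mutants than to the other wild types. The log2 fold change was −1.23 (SE 0.22, limma adjusted p 0.00278), and −1.45 without replicate 1 (adjusted p 9.6e-05). The exact two-sided permutation test over samples, with 252 arrangements, gave 0.00794, the smallest value that 5 against 5 allows.

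Rps28, a short protein of the small subunit's head, was at 177, 233, 207, 228 and 281 FPKM in the wild types and at 122, 139, 105, 124 and 118 FPKM in the mutants. Its groups do not overlap, and replicate 1 is again the lowest wild type. The log2 fold change was −0.88 (SE 0.11, adjusted p 0.0006). Rps15, which contacts the decoding site, was at 593, 765, 810, 601 and 659 FPKM against 416, 432, 404, 440 and 436. The mutant libraries lie within a narrow band below the wild types, with a log2 fold change of −0.68 (SE 0.09, adjusted p 0.000692).

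Rps19, the gene most often mutated in human Diamond-Blackfan anaemia, had the largest fall of a single entry. It was at 113, 124, 231, 83.8 and 132 FPKM in the wild types and at 27.2, 97.5, 42.6, 62.3 and 60.7 FPKM in the mutants. The groups overlap, since mutant replicate 2 lies above wild-type replicate 4. The log2 fold change was −1.27 (SE 0.33, adjusted p 0.0161). Rps6, the substrate of the S6 kinases, is listed at only 6.14 to 8.34 FPKM in SS_WT and 3.82 to 4.69 in Kcnj16_m1, with a log2 fold change of −0.64 (adjusted p 0.000953). That level is far below those of most other members, since the median of the 68 tested entries with introns was 344 FPKM over all libraries. Rps3a, a protein of the small subunit's platform, was lower by a log2 fold change of −0.36 (adjusted p 0.0158), with groups that overlap.

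In the large subunit the most abundant member was also lower. Rpl41, the smallest protein of the ribosome, was at 1267, 1511, 1321, 1085 and 1380 FPKM in SS_WT and at 983, 986, 792, 992 and 875 FPKM in Kcnj16_m1. The groups do not overlap and the log2 fold change was −0.50 (SE 0.10, adjusted p 0.0044). Rpl39 on chromosome X, a small protein of the exit tunnel, was at 415 ± 43.3 FPKM against 272 ± 31.6 (SD, n = 5), a log2 fold change of −0.61 (adjusted p 0.00156). Rpl36 was at 863 ± 38.1 against 611 ± 49.3 FPKM, with groups that do not overlap and a log2 fold change of −0.50 (adjusted p 0.000748). In Rpl36 wild-type replicate 4 was the highest library, unlike in most members.

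Several abundant members showed no difference past the threshold. The ribosomal stalk recruits translation factors through the proteins P0, P1 and P2. Rplp0 was at 713, 536, 581, 494 and 589 FPKM in the wild types and at 594, 641, 592, 663 and 639 FPKM in the mutants, a log2 fold change of 0.11 with a 95% interval from −0.09 to 0.31. Its groups overlap. Rplp1 on chromosome 8 was at 924 ± 138 against 809 ± 66.6 FPKM (SD, n = 5), a log2 fold change of −0.18 with an interval from −0.41 to 0.04. The other Rplp1 entry, on chromosome 17, was at a mean of 29.8 FPKM in both groups. Rpsa, the laminin receptor homologue of the small subunit, had a log2 fold change of 0.06 with an interval from −0.12 to 0.24. Rps18, near the subunit interface, was at 808 ± 140 against 769 ± 56.4 FPKM, and its log2 fold change of −0.06 had an interval from −0.30 to 0.18. Rpl35, at the exit tunnel, was at 823 ± 96.2 against 703 ± 32.8 FPKM, with an adjusted p of 0.0726.

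**Figure D4:**
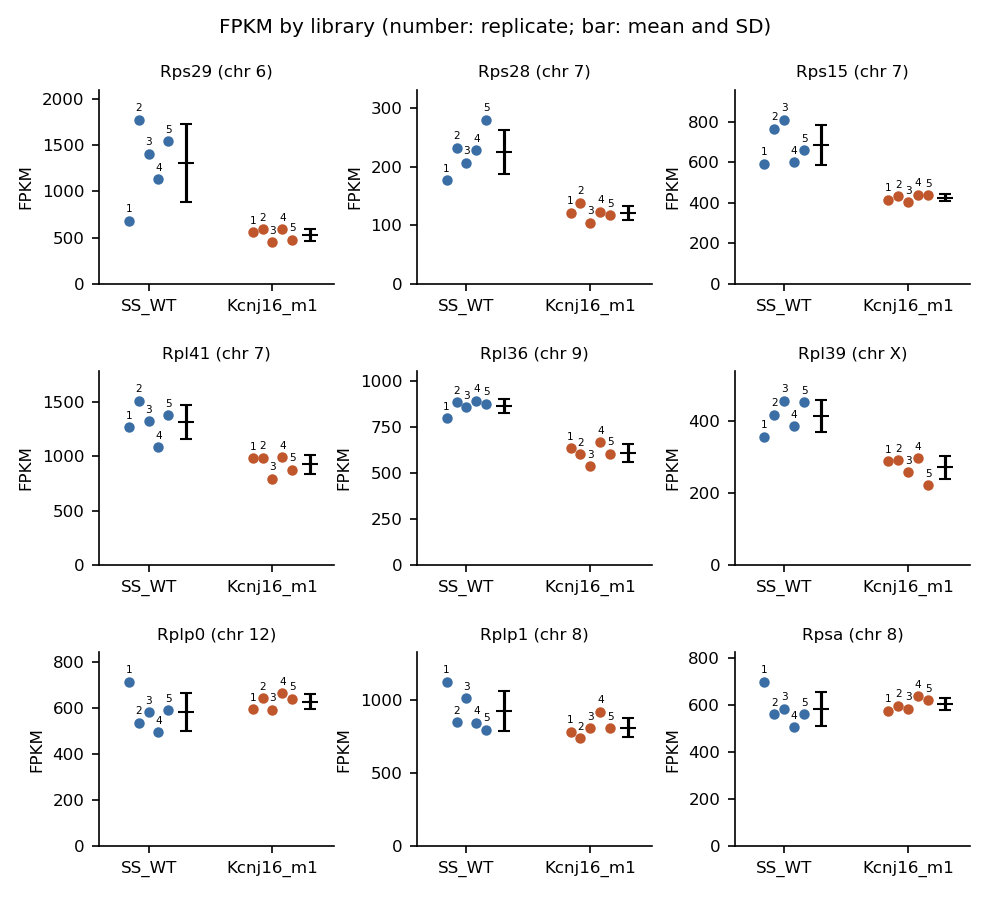
FPKM of 9 members in each library, with the mean and SD at the right of each group and axes from 0. In the upper 6 panels all mutant libraries lie below all wild types, and in Rplp0, Rplp1 and Rpsa the groups overlap.

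Paralogs that can replace a ribosomal protein in some tissues were read by name. The entry with the symbol Rpl36al on chromosome X, which has introns, was lower, at 125 ± 15 against 73.7 ± 5.61 FPKM (SD, n = 5). Its log2 fold change was −0.75 (limma adjusted p 0.000297). No member has the symbol Rpl36a, so the symbol does not show whether this entry is the paralog or the main gene of L36A. The other Rpl36al entry, without introns on chromosome 10, was also lower, by −0.99 (adjusted p 0.000399). The L36A-like entry LOC100912182, outside the naming rule, was at a mean of 117 against 116 FPKM and did not pass (adjusted p 0.874). Summed over 6 entries, L36A was lower by −0.40 (adjusted p 0.00362). Rpl22l1, the paralog of Rpl22, had a log2 fold change of −0.11, Rps27l, a p53 target related to Rps27, one of −0.10, and Rpl7l1, a nucleolar relative of Rpl7, one of 0.03. None of these 3 passed. Rps4y2 on chromosome 4 was at 7.92 ± 1.63 against 8.06 ± 1.67 FPKM and Rpl10l was at 0.00 to 5.71 FPKM over the 10 libraries. Rpl3l, the heart and skeletal muscle form of Rpl3, Rpl39l, Rps19l1 and Rps27l3 were too low to be tested, at no more than 0.261 FPKM in any library.

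The labels and notes do not say how reads that match near-identical copies equally well were assigned, and 3 members whose proteins every ribosome holds have almost no reads. Rpl10a and Rpl23a are listed at 0 in all 10 libraries, and Rplp2 at 0.00 to 0.51 FPKM. For P2 the table has another entry outside the naming rule, LOC100911575, described as P2-like. It was at 198, 231, 15.8, 320 and 8.65 FPKM in the wild types and at 15.8, 7.45, 7.72, 223 and 292 FPKM in the mutants. High and low libraries of this entry occur in both groups, and none lies between 15.8 and 198 FPKM. The P2-like entry LOC498555 was at 55.9 to 108 FPKM in all libraries. It was higher in Kcnj16_m1, at a mean of 97.6 against 70.5 FPKM (log2 fold change 0.51, limma adjusted p 0.0317). A further P2-like entry, LOC100362751, was lower, at a mean of 9.13 against 16.2 FPKM (−0.75, adjusted p 0.0312). The sum over all P2 entries did not pass (−0.14, adjusted p 0.877).

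Of the 3 entries called higher, 2 are described here, and for both the table holds a copy that was lower. Rps27a, which encodes ubiquitin fused to protein S27A, was at 401, 198, 227, 174 and 223 FPKM in the wild types and at 325, 452, 354, 388 and 331 FPKM in the mutants, a log2 fold change of 0.65 (SE 0.19, adjusted p 0.0287). The entry Rps27a-ps1 on chromosome 5 was at 299.3, 317, 399, 294 and 304 FPKM against 205, 101, 151, 157 and 148 FPKM, a log2 fold change of −1.10 (adjusted p 0.000983). Its groups do not overlap, and it lies inside the gene Foxj3. Summed over 4 entries, S27A was at 567 ± 94.1 against 522 ± 30.2 FPKM (SD, n = 5), a log2 fold change of −0.10 (adjusted p 0.476). The call for Rps27a held in 3 of the 10 fits that each left out 1 library, with adjusted p up to 0.0684. The chromosome 6 entry of Rpl32, without introns, overlaps the gene Cdca7l. It was at 8.84 ± 1.76 against 13.6 ± 3.84 FPKM, a log2 fold change of 0.57 (adjusted p 0.0334). This call held in 4 of those 10 fits, with adjusted p up to 0.0746. The chromosome 4 entry with introns was at 380 ± 55.1 against 346 ± 19.8. The L32-like entry LOC688684 was lower by −0.31 (adjusted p 0.0224).

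**Figure D5:**
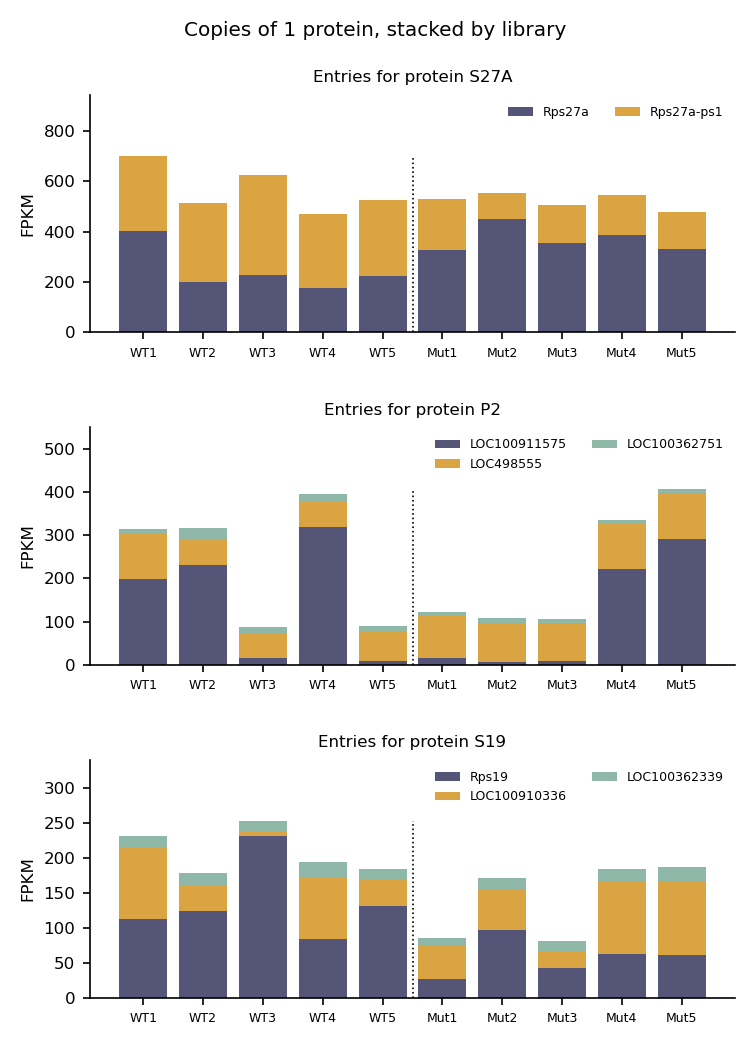
FPKM of the main entries for proteins S27A, P2 and S19, stacked for each library, with wild types left and mutants right of the dotted line. Rps27a-ps1 takes less of the S27A bar in every mutant library than in any wild type, and P2-like LOC100911575 is high in 5 libraries of both groups.

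To remove the division among copies, all entries that the symbol or description gives for a protein were added up before the fit, a step chosen after these values were seen. This gave 70 proteins from 292 entries, of which 105 were members, and Rpl3l, Rpl7l1, Rpl10l, Rpl22l1, Rpl39l, Rps27l, Rps4y2 and Rps19bp1 were kept apart. Both Rpl36al entries were added to L36A, Rps19l1 to S19 and Rps27l3 to S27. Likewise Rpl22l2 was added to L22, Rpl5l1 to L5, Rps17l to S17, Rps15al2 to S15A, and Rpl31l3 and Rpl31l4 to L31. Limma called 32 of the 70 proteins lower and 0 higher, beside 13.9% and 14.6% of all 13891 genes tested, and 38 did not pass. Single-library removal gave 29 to 41 lower proteins, and 0 higher except without wild-type replicate 1, where 5 were higher. They included L22, L7, S14 and S3. In L22 the L22-like entry LOC100363800, outside the naming rule, held 99.9% of the sum. The median log2 fold change was −0.25. In 29 of the 32 the call held when any single library was left out. In the large subunit 22 of 44 proteins were lower and in the small subunit 10 of 26.

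The largest summed falls past the threshold were those of S29, L38, L35A, S28 and S15. S29 was at 1321 ± 422 against 542 ± 65.6 FPKM, a log2 fold change of −1.22 (adjusted p 0.00275). L38 and L35A, both of the large subunit, were low in sum, at 9.77 ± 1.73 against 4.87 ± 2.30 FPKM and at 27.3 ± 2.59 against 13.6 ± 2.99 FPKM (SD, n = 5). Both were lower, L38 by a log2 fold change of −1.01 (adjusted p 0.00985) and L35A with an adjusted p of 0.000542. No Rpl38 or Rpl35a entry among the members has introns. The largest entry held 31.3% of the L38 sum and 39.8% of the L35A sum. These sums therefore need not describe the mRNA of the main gene of either protein. S28 was lower by −0.80 and S15 by −0.68 on the log2 scale. The sums of 5 proteins, L10A, L23A, L35A, L38 and S6, had a mean under 50 FPKM, far below those of most others.

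For 3 of the largest single falls the sum over copies did not pass. S19 was at 211 ± 33.0 against 145 ± 54.3 FPKM, a log2 fold change of −0.62 (adjusted p 0.0824). The S19-like entry LOC100910336 ran from 8.11 to 101 FPKM in SS_WT and from 24.2 to 106 in Kcnj16_m1. The Rps4x entry on chromosome 4 has no introns, and was at 79.4 ± 9.25 against 43.0 ± 2.36 FPKM, a log2 fold change of −0.87 (adjusted p 8.6e-05). The S4X entry LOC100362640 was at 189 to 287 FPKM in SS_WT and 222 to 244 in Kcnj16_m1, and the sum for S4X had a log2 fold change of −0.17 (adjusted p 0.134). S27A was described above. S6 in sum was at 20.4 ± 11.0 against 31.2 ± 26.1 FPKM, which spread more within than between the groups.

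Lists of the wider translation system were read in the same fit. Of 3 genes of ribosomal proteins outside the naming rule none passed. They include Fau, which encodes a ribosomal protein fused to a ubiquitin-like protein, and Gnb2l1, which encodes Rack1, a scaffold on the small subunit. Of 36 initiation factor genes 6 were lower (16.7%) and 2 higher (5.56%), beside 14% and 14.6% of all genes, with a median of −0.02, so the share lower lies near that of all genes. The helicase gene Eif4a1 was lower by −0.36 (adjusted p 0.00241), Eif2s2 by −0.33 and Eif3j by −0.41. Of 13 elongation, termination and rescue genes 2 were lower and 2 higher, 15.4% each, which is also near the shares of all genes. The rescue factors Pelo (0.26, adjusted p 0.0106) and Hbs1l (0.24) were higher and the release factor Etf1 was lower (−0.19).

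Other TOP mRNAs and ribosome assembly genes were read beside the same 14% lower and 14.6% higher over all genes. Of 15 further TOP transcripts 5 were lower (33.3%) and 0 higher, with a median of −0.10. Npm1, a nucleolar chaperone, was at 141 ± 22.3 against 97.3 ± 9.16 FPKM (log2 fold change −0.52, adjusted p 0.00538), Nap1l1 was lower by −0.54 and Hnrnpa1 by −0.29. Of 64 tested ribosome biogenesis genes 13 were lower (20.3%) and 4 higher (6.25%), with a median of −0.06. Fbl, the rRNA methyltransferase fibrillarin, was at 27.5 ± 2.36 against 19.5 ± 1.5 FPKM (−0.48, adjusted p 0.00111), and Emg1 (−0.40) and Nsa2 (−0.46) were also lower. Of 73 mitochondrial ribosomal protein genes tested 15 were lower (20.5%) and 1 higher (1.37%), with a median of −0.04. Mrpl32 was lower by −0.52, Mrps25 by −0.44 and Mrpl48 by −0.36.

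Of 33 tested genes of mTOR signalling 7 were higher (21.2%) and 3 lower (9.09%), beside 14.6% and 14% of all genes, with a median of 0.04. Tsc2, an inhibitor of the pathway, was at 6.21 ± 0.229 against 7.63 ± 0.202 FPKM (SD, n = 5), a log2 fold change of 0.28 (adjusted p 0.00242). Sesn1, a stress-induced inhibitor, was higher by 0.43 (adjusted p 0.00137) and the kinase gene Rps6ka1 was lower by −0.35 (adjusted p 0.00155). Larp1, at 24.2 ± 1.80 against 22.6 ± 1.45 FPKM, and Mtor, at 9.86 ± 1.44 against 11.3 ± 0.448, did not pass. Of 6 genes that report p53 activity or the ribosomal protein checkpoint none passed, and Mdm2 was the nearest at a log2 fold change of 0.15 (adjusted p 0.0828). Of 14 proteasome core genes, a housekeeping complex of short abundant mRNAs outside translation, 4 were lower (28.6%) and 0 higher, led by Psma4 at −0.42 (adjusted p 0.000579).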

How the data were processed

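The members and lists were chosen with earlier results of these data known. The authors deposited 1 table with an FPKM value for each gene and library. The submitters' processing notes name featureCounts 1.5.0-p3, StringTie 1.3.3b, HISAT2 2.0.5 and fastp. They and the labels do not give the build, the strandedness or the handling of reads that match several copies. Of the 91 tested entries 83 overlap no other gene with a mean of 0.5 FPKM or more, as do 34 of the 39 that were lower. Genes of small nucleolar and small Cajal body RNAs were left out of this count.

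FPKM times gene length gave whole reads for 100% of values within 0.05 reads. The test was limma 3.58.1 (R 4.3.3) with a group term and an eBayes mean trend, on log2(FPKM + 0.5) of entries that reached 0.5 FPKM in 5 or more libraries. Its two-sided p-values had the Benjamini-Hochberg adjustment, over all genes tested. The fit was tested on simulated data. Fold changes on this scale understate changes of low genes. The labels do not state that each library is a separate animal, and the p-values then reflect only how these samples vary, which may be technical.

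The rule for named genes took the 5 highest members, the 6 largest rises and falls past the threshold, the paralogs, the longest and the 3 shortest tested members, Rps6, Rplp0, Rplp1, Rplp2 and Rpsa, and up to 3 genes of each list by adjusted p. Rps15, Rpl36, Rpl27a, the entries without a gene symbol of their own, and members named for a single library were chosen after their values were seen. Lists and markers cover genes in and outside translation, including kidney and blood cells. Some genes are counted in the totals but not reported by name here. The exact permutation test had 252 arrangements.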

Additional observations from a re-analysis of the deposited data

Results flagged for a closer look

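In 86 groups of 5 libraries examined for a library apart from the rest (gap to the nearest library above 0.71 of the group's range), 9 had one. By chance about 1 in 20 groups picked without regard to their values is flagged. Rpl8, the Rpl7a entries and the summed proteins were picked after their values were seen. The sums of L8 and L7A also hold the Rpl8 and Rpl7a entries. The count of 9 therefore cannot be set against that rate. Wild-type replicate 1 was apart in Rps27a (401 FPKM, group median 223), and wild-type replicate 3 in Rps27a-ps1 (399, median 304). Mutant replicate 5 was apart in Rpl8, a large-subunit protein (143 FPKM, median 10.5), and in the Rpl7a entry ENSRNOG00000049097 (73.6, median 20.1). It was also apart in the summed entries of L8 (165, median 29.3), of L7A (133, median 80.4) and of S6 (77.1, median 23.2). The fits with all libraries gave no call for Rpl8 or Rpl7a. Wild-type replicate 5 was apart in the summed entries of S6 (39.5, median 16.01) and mutant replicate 2 in Rps27l (55.4, median 46.7).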

How the results depend on the processing

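Under 25 alternative fits, 31 of the 39 entries called lower kept the call in all, and 0 of the 3 called higher did. Over the fits without 1 library each, entries lower ran from 37 to 46, entries higher from 0 to 9, the median log2 fold change from −0.32 to −0.23, the summed ratio from 0.797 to 0.843, Spearman's rho with length from 0.14 to 0.21 and all genes called from 3013 to 4476. Of the 39 lower entries, 37 kept the call without each library. The number called higher was 1 with no filter on low values, 7 without the wild-type replicates 1 and 2, whose label numbers are the lowest, and 6 without wild-type replicates 1 and 4 (added after seeing the data). It was 0 with copies summed (also added). Over all genes, those fits called 1823 of 21459, 1984 of 13637, 2530 of 13635 and 2030 of 13891 higher, in that order. With no filter rho was 0.0785. The cause of these moves was not tested. Sign changes were found only for members that did not pass. Rps18 was at 0.0874 with quantile normalization, 0.0445 and 0.0327 with the length trend removed (of all genes and of non-members) and 0.0041 without the lowest label numbers. Rplp1 on chromosome 17 was at −0.0202 with quantile normalization, −6.9e-07 by median of ratios, −0.0322 with the level trend removed, −0.00741 with array weights, −0.0097 by voom on whole reads and −0.00493 without the lowest label numbers. Over the fits without single libraries Rps18 ran from −0.114 to 0.0339, Rplp1 on chromosome 17 from −0.0513 to 0.0482, Rps4y2 from −0.0685 to 0.121, Rpl10l from −0.149 to 0.788 and Rpl7l1 from −0.0301 to 0.0772. Rpl13 and Rps7 lost the call under both removals of the length trend and Rpl30 under the first. No paired analysis was possible because replicate numbers follow accession order and pair no samples. Entries of a few FPKM rest on few reads, and their folds are the least certain.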
